A study of Mus musculus with 9 samples.

Results

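The genes for the proteins of the cytosolic ribosome were followed in bone marrow endothelial cells (BM ECs). Members were the rows whose gene name is Rpl or Rps, digits and at most a short suffix, together with Rplp0, Rplp1, Rplp2 and Rpsa, and without names ending in -ps. The rule found 88 of the 46078 genes of the table: 46 genes of the large (60S) subunit, 31 of the small (40S) subunit, 7 paralogs (Rpl3l, Rpl7l1, Rpl10l, Rpl22l1, Rpl39l, Rps27l and Rps4l) and 4 copies that GENCODE M21 annotates as processed pseudogenes (Rps3a2, Rps3a3, Rps12l1 and Rps12l2). The RNA came from B6 mice labelled wild type, and the age of the mice is not given in the sources used here. The titles of Sca-1+ library 13 and Sca-1- libraries 10, 14 and 22 carry the mark CD452, once without its CD, whose meaning the labels do not give, and those of 15, 19, 8 and 16 carry wt. CD45-Ter119-CD31+ cells were sorted by flow cytometry into a Sca-1+ fraction, the cells that the study places along arterioles, and a Sca-1- fraction, those it places along sinusoids. There were 4 Sca-1+ libraries, numbered 7, 13, 15 and 19 in the labels, and 5 Sca-1- libraries, numbered 8, 10, 14, 16 and 22. The comparison asks how the transcriptomes of these endothelial fractions differ.

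A ribosome holds a single copy of nearly every ribosomal protein (RP), so the cell makes these proteins in matched numbers from mRNAs that need not be equally abundant. Most RP mRNAs begin with a C followed by a run of pyrimidines, the 5′ terminal oligopyrimidine (TOP) sequence, through which mTORC1 and LARP1 control their translation. Loss of a single copy of any of several RP genes causes Diamond-Blackfan anemia, a failure of red cell formation in the bone marrow.

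The RefSeq promoter table (GRCm38.p6) held a start site for 63 of the 88 members. A TOP sequence was searched on the transcribed strand as a C at the annotated start, or within 5 bases of it, followed by at least 4 further bases that are C or T. It was found in 29 of these 63 members (46%) and in 21.2% of all 27025 genes with a promoter in that table. The following windows run from 10 bases before the start site to 16 bases from it, 5′ to 3′, with the TOP sequence in capitals. They are shown for genes that the comparisons below turn on and for some genes with a run at the annotated start. The choice was made after the sequences were seen, and other members have longer runs, such as Rpl27a (17 bases) and Rpl13a (14).
Rps27 (chr3:90213633-90213658, - strand): cgctttcgctCCTTTCCggcggtgac
Rps28 (chr17:33824547-33824572, - strand): cgcgtgcggtctcgcgagagcgaaag
Rpsa (chr9:120127756-120127781, + strand): ttatttaaggacgtcatttccggccg
Rpl12 (chr2:32961702-32961727, + strand): agcaggatccgtCTTTTCggctttcg
Rpl14 (chr9:120571507-120571532, + strand): ggccctctctCTTCTCgctgagcgcc
Rps6 (chr4:86857352-86857377, - strand): gaagtcgggcCTCTTTTTCgtgacgc
Rpl35 (chr2:39005116-39005141, - strand): ccgccctttcCTCTTTCTCTCgaacc
Rpl38 (chr11:114668570-114668595, + strand): aagcctcgttCTTTCCCCgttctctt
Rps27 thus has the sequence at its annotated start, whereas the windows of Rps28 and Rpsa hold no match. A missing match says only that these letters are not in this window. The median log2 fold change between the fractions was -0.28 over the 29 members with the sequence and -0.17 over the 32 tested members with a promoter and no match.

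The libraries held between 21581653 and 25959818 counts, and those of one fraction differed beyond counting noise. Ly6a, the gene of Sca-1, was between 874 and 1306 CPM in Sca-1+ libraries and between 0.240 and 1.49 CPM in Sca-1- libraries. Pecam1, the CD31 of the gate, overlapped at 1137 to 1761 and 334 to 1702 CPM. The overlap came from Sca-1- libraries 8 and 10 (1266 and 1702 CPM), as the other Sca-1- libraries were at 334 to 461 CPM. The defining markers of the labelled cell type were uneven: Cdh5, VE-cadherin, averaged 264 ± 27.2 CPM (SD, n = 4) in Sca-1+ and 7.14 ± 3.92 CPM (SD, n = 5) in Sca-1- libraries, and all 25 general endothelial genes together took 2.01% to 2.60% of counts in Sca-1+ and 0.240% to 0.371% in Sca-1- libraries. Megakaryocyte genes (all 18 lower in Sca-1+ cells, none at 0) took 0.0141% to 0.0226% of counts in Sca-1+ and 3.52% to 7.53% in Sca-1- libraries, and the general leukocyte list took 0.0386% to 0.0502% against 0.369% to 0.572%. Erythroid genes (0.0273% to 0.0425% against 0.166% to 0.338%) were also higher in every Sca-1- library, whereas smooth muscle and pericyte genes (0.0871% to 0.200% against 0.0258% to 0.0362%) were higher in every Sca-1+ library. B and plasma cell genes (0.0139% to 0.258% against 0.00257% to 0.0988%) and neutrophil genes (0.00109% to 0.0888% against 0.0160% to 0.0819%) overlapped between the fractions. Both upper ends in Sca-1+ cells were library 19 alone. The other Sca-1+ libraries were at 0.0139% to 0.0166% for B and plasma cell genes. For neutrophil genes they were at 0.00109% to 0.00751%, under every Sca-1- library. In Sca-1+ libraries 2 of the 12 B and plasma cell genes were at 0 throughout, and Ptprc, the CD45 gene, was at 0 to 2.56 CPM, against 17.2 to 47.8 CPM in Sca-1- libraries. The part of these other transcripts in the RP results was not tested, and fewer cells of a type cannot be told apart here from less RNA per cell.

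RP genes took a small share of the counts in every library, and their share overlapped between the fractions. It was 0.527% in Sca-1+ library 7, 0.549% in 13, 0.601% in 15 and 0.404% in 19. In Sca-1- cells it was 0.207% in library 8, 0.187% in 10, 0.692% in 14, 0.752% in 16 and 0.614% in 22. Sca-1- libraries 8 and 10 stood apart, under every other library, while the other 3 Sca-1- libraries were above all Sca-1+ libraries. The means were 0.520% ± 0.0833 (SD, n = 4) in Sca-1+ and 0.490% ± 0.272 (SD, n = 5) in Sca-1- cells, a difference well within the spread between replicates. Without Sca-1- libraries 8 and 10 the Sca-1- mean was 0.686%, and the difference turned from 0.0299 to -0.166 percentage points. It was also below 0 without library 8 (-0.0409) or without library 10 (-0.0459) alone.

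**Figure D1:**
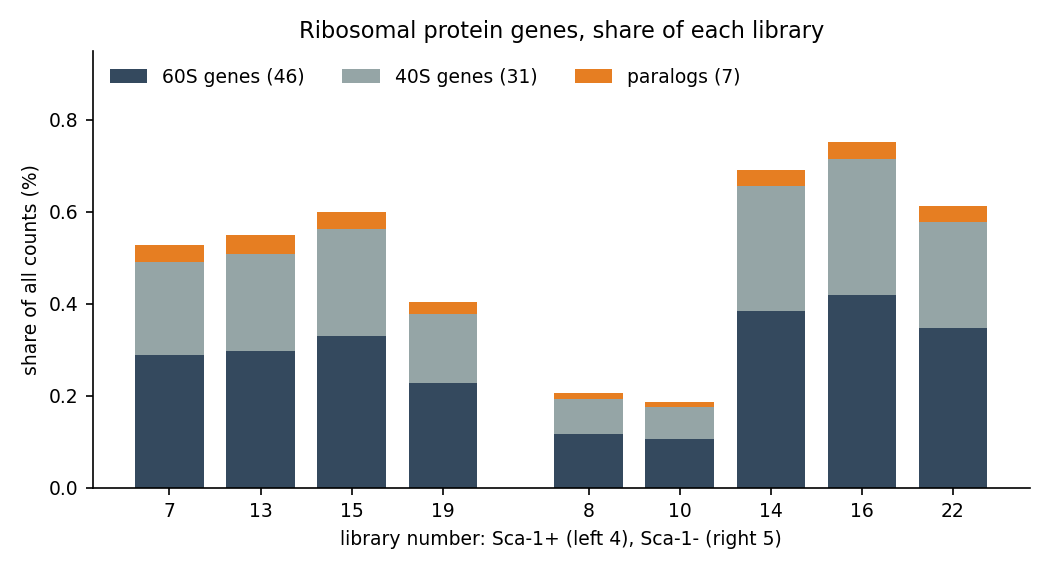
Share of all counts, in percent, taken by 60S genes, 40S genes and paralogs in each of the 9 libraries (1 bar a library, Sca-1+ left, Sca-1- right). Sca-1- libraries 8 and 10 lie at 0.207% and 0.187% and all others between 0.404% and 0.752%.

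The low share of libraries 8 and 10 ran through the whole family. Of the 77 genes of the 60S and 40S subunits, 74 had a lower share of counts in both of these libraries than in any other library, and after TMM scaling 75 had a lower CPM in both than in the other 3 Sca-1- libraries. Other transcripts moved with it: the 20 most abundant genes took 21.9% and 18.7% of counts in libraries 8 and 10 against 13.3% to 15.8% in the other Sca-1- libraries, and the megakaryocyte list took 6.93% and 7.53% against 3.52% to 6.09%. The 26 other TOP mRNAs took 0.118% and 0.114% against 0.254% to 0.287%, and mitochondrial ribosomal protein genes took 0.161% and 0.149% against 0.424% to 0.497%. Ribosome biogenesis genes took 0.141% and 0.151% against 0.455% to 0.598%, and Pecam1 was at 1266 and 1702 CPM against 334 to 461 CPM. Their part in the low RP share was not tested.

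The balance of the subunits varied little. There were 69.0 ± 2.79 counts of 40S genes per 100 counts of 60S genes (SD, n = 4) in Sca-1+ and 68.4 ± 2.27 (SD, n = 5) in Sca-1- cells, and libraries 8 and 10, at 66.5 and 67.2, lay within the range of the others. Sca-1+ library 19, at 64.9, was lowest. The share itself differed 4.02-fold between the highest and lowest Sca-1- libraries.

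Between the fractions, 9 of the RP genes differed and most moved little. Of 82 members tested by edgeR's quasi-likelihood test, 3 were higher in Sca-1+ cells (adjusted p under 0.05), where 23.3% of all 15937 tested genes were higher, and 6 were lower, where 21.4% of all genes were lower. In either direction this was 9 members and 44.8% of all genes. The 3 higher genes were Rps27, Rps28 and Rps4l, and the 6 lower genes included Rpsa, Rpl21, Rpl6, Rpl5 and Rpl39, of which Rpl21 and Rpl39 were named after their values were seen. The median log2 fold change was -0.28 over the members tested and 0.07 over all genes tested, and 68.3% of members stayed within 0.5 of 0 on the log2 scale against 29.2% of all genes. An absolute log2 fold change of at least 1 was found for 5 members (6.1%), among them Rps4l, Rps27, Rps28 and Rpsa, and for 50.7% of all genes. Mitochondrially encoded RNA, read here for RNA quality, took 0.321% ± 0.0784 (SD, n = 4) of counts in Sca-1+ and 0.146% ± 0.0350 (SD, n = 5) in Sca-1- libraries with no overlap, and its part in these differences was not tested. Scaled to library size only, the median of all genes moved to 0.43, that of the members to 0.01, and 4 members were higher and none lower. With DESeq2 size factors 3 were higher and 11 lower. Scaled to general endothelial genes, which themselves differed between the fractions, all 82 members were lower. Their median was then -4.16, and that of all genes was -3.89. Shares of all genes called under these other scalings are not given here, so the counts describe the members alone.

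The count of lower members also rested on single libraries. It rose to 22 without Sca-1- library 8, to 13 without Sca-1- library 10 and to 41 without both, when the median of the members was -0.60. It fell to 0 without Sca-1+ library 7 or 19, to 1 without Sca-1+ library 13 or Sca-1- library 16 or 22, and to 3 without Sca-1+ library 15 or Sca-1- library 14. The 3 higher members remained called in each of these fits. The shares of all genes called in these fits are not given here, so the counts describe the members alone.

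**Figure D2:**
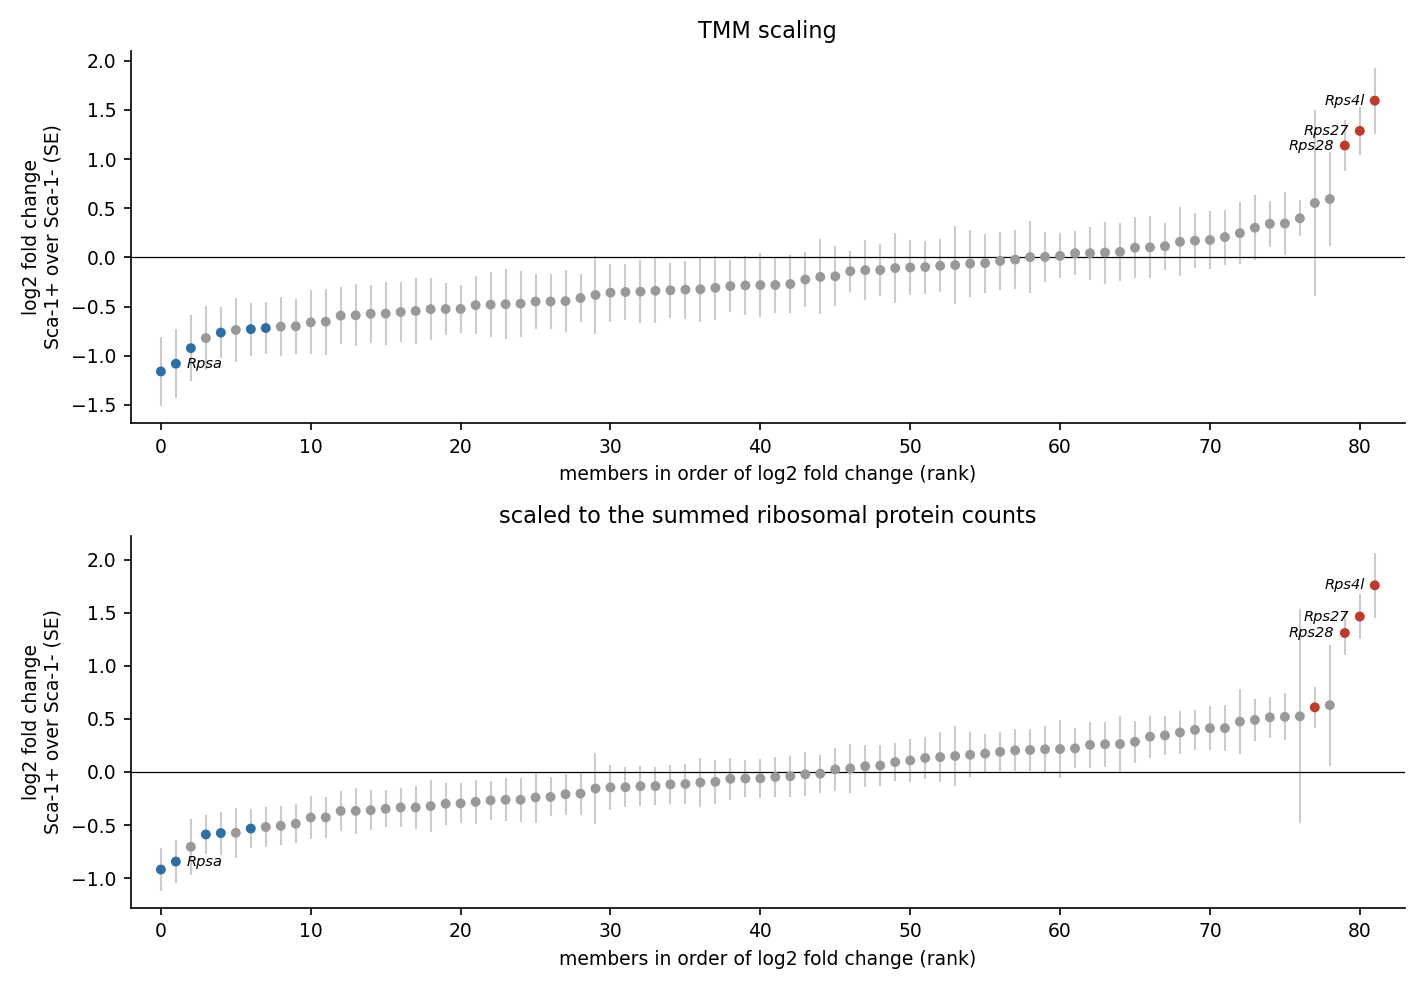
Log2 fold change of each of the 82 tested members, Sca-1+ over Sca-1- cells, with bars of 1 standard error, after TMM scaling (top) and relative to the summed counts of 60S and 40S genes (bottom). Red points are higher and blue points lower at an adjusted p under 0.05, and most members lie close together between -0.75 and 0.5, with Rps4l, Rps27 and Rps28 apart at the upper end. All members were lower when libraries were scaled to general endothelial genes, which put the median of all genes at -3.89.

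A second fit scaled each library to the summed counts of its 60S and 40S genes, so that a member is compared with its own family. The low summed share of libraries 8 and 10 drops out of this scale, but their mix of RP genes still differed. Of the 77 genes, 15 had a lower share of RP counts in both than in the other 3 Sca-1- libraries. For 19 genes that share was higher in both. The median standard error over members was 0.20 in this fit against 0.30 after TMM scaling. In it 4 members were higher (22.1% of all genes were) and 5 were lower (16.1% of all genes were), together 9 members beside 38.2% of all genes. The higher genes included Rps4l, Rps27 and Rps28, and the lower genes Rpsa, Rpl12, Rpl6 and Rpl5. In counts per 1000 RP counts, the Sca-1+ range lay above the Sca-1- range for 17 of 82 members, beside 24.7% of all genes. It lay below for 20 members, beside 14.3% of all genes. The values of the 60S and 40S genes sum to 1000 in each library, so when some rise others must fall. Without Sca-1- libraries 8 and 10 the fit called 7 higher and 6 lower. With any single Sca-1+ library left out, or Sca-1- library 22, it called 3 higher and 2 lower. Shares of all genes called in these refits are not given here, so the counts describe the members alone.

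In the small subunit, Rps27 was the clearest gene (ENSMUSG00000090733, chr3:90212522-90213651 on the - strand, mm10), a zinc finger protein of the 40S subunit. Its level was 52.2, 65.9, 70.4 and 57.4 CPM in Sca-1+ libraries 7, 13, 15 and 19, and 19.5, 17.8, 31.2, 35.0 and 22.5 CPM in Sca-1- libraries 8, 10, 14, 16 and 22. Every Sca-1+ library was above every Sca-1- library, as for 24.8% of all tested genes. The difference was 2.44-fold (log2 1.29 ± 0.24 SE, adjusted p = 0.00186) and 2.76-fold relative to the RP total (adjusted p = 0.000723). It was lower only when libraries were scaled to general endothelial genes (log2 -2.62, beside a median of -3.89 over all genes). In all of the other 21 settings it was called. Relative to the RP total it was called in 16 of 17 other settings and missed with the replicate block (adjusted p = 0.0531), as did Rps28 (0.051).

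Rps28, a small 40S protein near the mRNA exit (chr17:33819027-33824562, - strand), showed the same separation. It measured 38.3, 32.7, 41.8 and 28.0 CPM in Sca-1+ and 12.4, 10.3, 20.96, 18.6 and 17.7 CPM in Sca-1- libraries, in the same order of libraries. The lowest Sca-1+ library was thus above the highest Sca-1- library. The fold was 2.20 (log2 1.14 ± 0.26 SE, adjusted p = 0.00493), and 2.48 relative to the RP total (adjusted p = 0.00107), with log2 -2.76 under endothelial scaling. Both Rps27 and Rps28 are among the 22 RP genes listed as mutated in Diamond-Blackfan anemia.

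Of the 40S genes, Rpsa, also known as the laminin receptor (chr9:120127689-120132369, + strand), was lower. It was at 14.9, 12.6, 17.0 and 9.80 CPM in Sca-1+ and 16.5, 15.9, 41.7, 37.6 and 31.8 CPM in Sca-1- libraries. Relative to 1000 RP counts it was 3.29 ± 0.382 (SD, n = 4) against 5.92 ± 0.444 (SD, n = 5), with no overlap, whereas the CPM of the fractions met at libraries 8 and 10. The fold was 2.11 lower (log2 -1.08 ± 0.35 SE, adjusted p = 0.0286), and 1.80 lower relative to the RP total (adjusted p = 0.00966). After TMM scaling the call was lost without Sca-1+ library 7, 13 or 19 or Sca-1- library 16 or 22, with adjusted p of 0.0511 to 0.0786.

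The other 40S genes named by rule did not pass the test. Rps6, the substrate of S6 kinase, had a log2 fold change of -0.10 ± 0.28 (SE, adjusted p = 0.794). Rps19, the RP gene most often mutated in Diamond-Blackfan anemia, had 0.10 ± 0.32 (adjusted p = 0.815), although its 16.2 to 18.9 counts per 1000 RP counts in Sca-1- libraries lay under the 21.5 to 22.9 of the Sca-1+ libraries. None of the 7 proteins of the beak, head and mRNA entry passed, with a median of -0.27. Of the 31 genes of the 40S subunit, 2 were higher and 2 lower, beside 23.3% and 21.4% of all genes, with a median of -0.31.

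**Figure D3:**
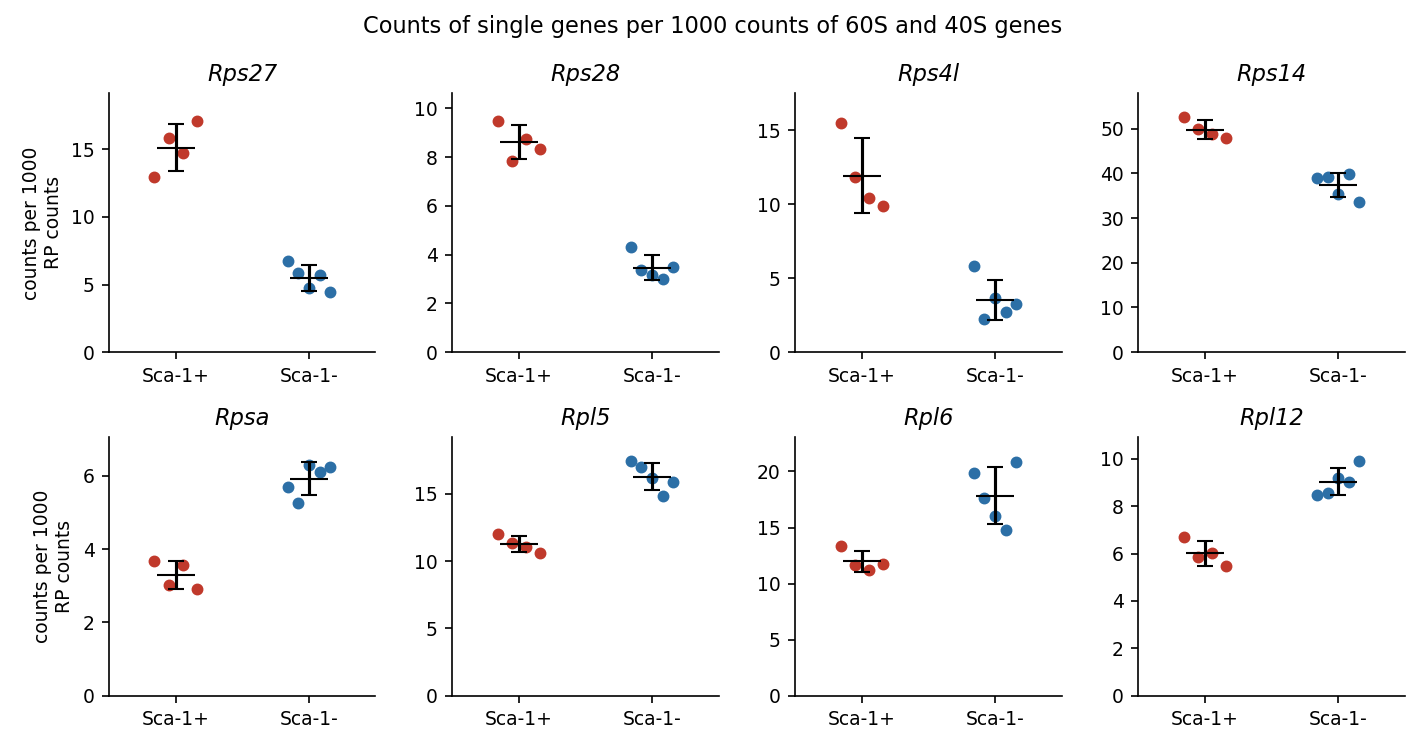
Counts of 8 single genes per 1000 counts of 60S and 40S genes in the same library, with points for libraries and bars for mean ± SD (n = 4 Sca-1+, red, and n = 5 Sca-1-, blue). Rps27, Rps28, Rps4l and Rps14 lie higher in every Sca-1+ library and Rpsa, Rpl5, Rpl6 and Rpl12 lower. On this scale 17 of the 82 tested members lay higher without overlap and 20 lower, beside 24.7% and 14.3% of all genes. Rps14 did not pass the edgeR test relative to the RP total (adjusted p = 0.147). The scale is a share of RP counts, so no scaling of whole libraries changes it.

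In the large subunit no gene was higher and 4 of 46 were lower after TMM scaling, beside 23.3% and 21.4% of all genes, with a median of -0.28. Rpl5, which carries the 5S rRNA with Rpl11 and binds MDM2 when ribosome assembly fails, was at 48.4, 47.4, 52.8 and 35.7 CPM in Sca-1+ and 50.5, 51.5, 107, 91.5 and 80.9 CPM in Sca-1- libraries. Libraries 8 and 10 lay among the Sca-1+ values. Its log2 fold change was -0.73 ± 0.27 (SE, adjusted p = 0.0484), close to the threshold, and -0.53 ± 0.18 relative to the RP total (adjusted p = 0.0426). The TMM call was lost in 12 of 22 other settings, among them the fits that left out any 1 of the 4 Sca-1+ libraries or Sca-1- library 14, 16 or 22 (adjusted p of 0.0501 to 0.127). Relative to the RP total it was called in 4 of 17 other settings, and was lost whichever library was left out (adjusted p of 0.0524 to 0.102). Exons of another gene on the opposite strand overlap 46.6% of the Rpl5 transcript. The library kit does not mark strand, so reads of both genes in that stretch cannot be told apart by strand. Rpl11, its partner, had a log2 fold change of -0.41 ± 0.24 (adjusted p = 0.195).

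Rpl6, a 60S protein of the ribosome surface, was at 53.8, 48.5, 53.8 and 39.4 CPM in Sca-1+ and 57.5, 53.6, 106, 91.3 and 106 CPM in Sca-1- libraries. It had a log2 fold change of -0.76 ± 0.26 (SE, adjusted p = 0.0355) and of -0.58 relative to the RP total (adjusted p = 0.047). Of 22 other settings 10 lost the first call, those that left out any single Sca-1+ library or Sca-1- library 16 or 22 among them (adjusted p of 0.0591 to 0.0972). The second call was lost in 11 of 17, namely when any single Sca-1+ library or Sca-1- library 8, 10 or 22 was left out (adjusted p of 0.0654 to 0.118), and in 4 others (up to 0.370). Rpl21 was the single member whose TMM level was lower in every Sca-1+ library, at 4.43 to 5.45 CPM against 6.07 to 13.7 CPM, as for 18.8% of all tested genes. Its log2 fold change was -0.92 ± 0.33 (SE, adjusted p = 0.0446). Rpl21 has 55 similar processed pseudogenes, more than any other member. Rpl39, a short protein lining the exit tunnel, measured 10.8 to 17.0 CPM against 15.1 to 29.4 CPM (log2 -0.72 ± 0.27 SE, adjusted p = 0.0497), and its values overlapped. As for every lower member, these calls were lost without Sca-1+ library 7 or 19.

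Rpl12, a protein at the base of the stalk, passed relative to the RP total and not after TMM scaling. It was at 5.46 to 6.70 counts per 1000 RP counts in Sca-1+ and 8.47 to 9.89 in Sca-1- libraries (log2 -0.59 ± 0.19 SE, adjusted p = 0.0311; after TMM scaling -0.82, adjusted p = 0.0602). The ranges did not overlap, but of 17 other settings of this fit it was called in 8, and not when any single Sca-1+ library or Sca-1- library 16 or 22 was left out (adjusted p of 0.0511 to 0.084). Rpl14 (log2 -0.74, adjusted p = 0.0907), Rpl34 (0.34, adjusted p = 0.258), Rpl27a (0.30, adjusted p = 0.484) and Rpl41, the shortest RP (0.40, adjusted p = 0.104), were also near the ends of the order and did not pass after TMM scaling. Without Sca-1- library 8 or 10 alone, Rpl12 (adjusted p of 0.0121 and 0.0204) and Rpl14 (0.0176 and 0.0326) passed.

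The P stalk recruits elongation factors through Rplp0, Rplp1 and Rplp2. Rplp0 was at 215, 232, 270 and 219 CPM in Sca-1+ and 150, 146, 294, 302 and 244 CPM in Sca-1- libraries. Its log2 fold change was 0.04 ± 0.27 (SE), that of Rplp1 was 0.02 ± 0.23 and that of Rplp2 was -0.47 ± 0.34, and none of the 3 passed (adjusted p of 0.911, 0.962 and 0.281). Of the 8 proteins around the nascent chain exit, Rpl39 alone passed, with a median of -0.28. Rpl10, which joins the 60S subunit late, had -0.14 ± 0.21 (adjusted p = 0.615), and Rpl38 had -0.65 ± 0.33 (adjusted p = 0.138, or 0.0472 without Sca-1- library 8 and 0.018 without 8 and 10). Of the 22 Diamond-Blackfan anemia genes, 2 were higher and 1 (Rpl5) was lower, beside 23.3% and 21.4% of all genes, with a median of -0.33.

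Paralogs were compared with their core genes within each library, which no scaling affects. Rps4l, related to Rps4x, had 242, 201, 176 and 183 counts per 100 Rps4x counts in Sca-1+ libraries 7, 13, 15 and 19. In Sca-1- libraries 8, 10, 14, 16 and 22 it had 66.1, 25.3, 48.2, 32.0 and 38.4. Rps4l thus exceeded Rps4x in every Sca-1+ library and stayed under it in every Sca-1- library, at means of 201 ± 29.3 (SD, n = 4) and 42.0 ± 15.9 (SD, n = 5). Leaving out any library kept the difference between 145 and 167 counts per 100.

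Rps4l itself (chr6:148354656-148355598, + strand, annotated in GENCODE M21 as a transcribed processed pseudogene) was at 62.5, 49.2, 50.002 and 33.3 CPM in Sca-1+ and 16.8, 6.77, 24.1, 16.6 and 16.5 CPM in Sca-1- libraries. The fold was 3.02 (log2 1.59 ± 0.34 SE, adjusted p = 0.0033), the largest among the members, and 3.39 relative to the RP total (adjusted p = 0.0019). Its log2 fold change was -2.25 under endothelial scaling and 1.34 to 1.91 in the other 21 settings, all of which called it. Rps4x, named after its values were seen, had -0.70 ± 0.28 (adjusted p = 0.063). How the counting treated reads that match both genes is not given in the sources used here.

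The ratio of Rps27l to Rps27 went in the other direction and moved with its denominator, as Rps27 was called and Rps27l was not. Rps27l had 211, 184, 193 and 150 counts per 100 Rps27 counts in Sca-1+ and 436, 488, 567, 414 and 559 in Sca-1- libraries. The ranges did not overlap, at means of 184 ± 25.3 (SD, n = 4) and 493 ± 69.8 (SD, n = 5). Rps27l itself, a p53 target, had a log2 fold change of -0.13 ± 0.26 (adjusted p = 0.719). Rps27rt, a retrogene of Rps27 outside the naming rule, was at 3.25 to 5.15 CPM in Sca-1+ and 0.698 to 2.36 CPM in Sca-1- libraries (log2 1.22 ± 0.43 SE, adjusted p = 0.041, and lower at -2.58 under endothelial scaling), and as a retrocopy it may share reads with Rps27. Its call held only without Sca-1- library 16 among the fits that left out 1 library (adjusted p of 0.0534 to 0.121 in the other 8).

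**Figure D4:**
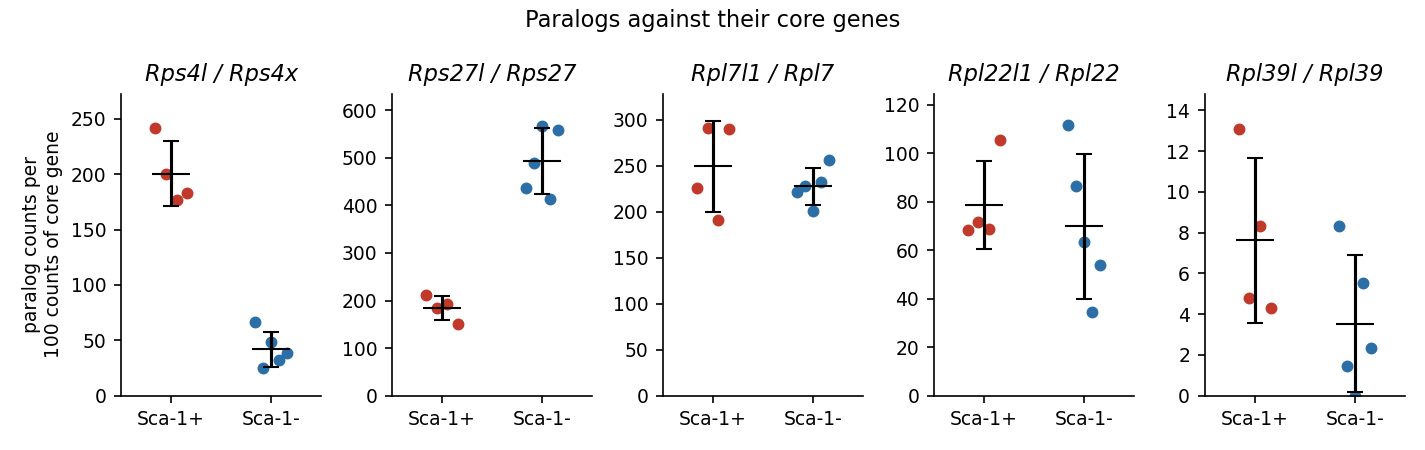
Counts of 5 paralogs per 100 counts of the core gene in the same library, with points for libraries and bars for mean ± SD (n = 4 Sca-1+, red, and n = 5 Sca-1-, blue). Rps4l per Rps4x lies higher and Rps27l per Rps27 lower in every Sca-1+ library, and the other 3 ratios overlap.

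The other paralogs did not separate the fractions. Rpl7l1, a nucleolar relative of Rpl7, had 250 ± 49.4 counts per 100 Rpl7 counts (SD, n = 4) against 228 ± 19.98 (SD, n = 5), and a log2 fold change of 0.01 ± 0.26 (adjusted p = 0.990). Rpl22l1 had 78.6 ± 18.04 counts per 100 Rpl22 counts against 69.9 ± 29.9, a difference of 8.72 that was -0.273 without Sca-1+ library 19 and -0.171 without Sca-1- library 16, and a log2 fold change of 0.11 ± 0.24 (adjusted p = 0.723). In Sca-1- libraries this ratio ran from 34.3 in library 16 to 112 in library 8. Rpl39l had only 0 to 43 counts in a library and was not separable (log2 0.55 ± 0.94 SE, adjusted p = 0.661). Rpl3l, the form of Rpl3 known from striated muscle, had 0, 1, 4 and 0 counts in Sca-1+ and 11, 0, 38, 0 and 110 counts in Sca-1- libraries, and Rpl10l, the testis form of Rpl10, had 0 in all 9; neither passed the filter on low counts. The 4 copies annotated as pseudogenes also failed it, with at most 12 counts in a library.

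Levels differed over more than 2 orders of magnitude between members. They are given as mean CPM per kb of the principal transcript over all 9 libraries, the scale that allows genes of different length to be compared. The highest were Rps14 (316 CPM per kb), Rpl4 (241), Rps9 (217) and Rpl32 (200), and the lowest were Rps20 (7.51), Rps15a (4.66), Rpl17 (4.26) and Rpl24 (0.885). The median over the 77 genes was 54.9, and the paralog Rps27l stood at 239. The order was similar in both fractions, with a Spearman correlation of 0.948 over the 77 genes, which share libraries and lengths. Rpl4 was at 190 CPM per kb in Sca-1+ and 282 in Sca-1- cells and Rps14 at 342 and 296, differences that did not pass the test (adjusted p of 0.174 and 0.574), except that Rpl4 passed without Sca-1- library 8 (adjusted p = 0.0369), without libraries 8 and 10 (0.00114) and under endothelial scaling.

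Several of the lowest levels stood beside features of the annotation. Rpl17 has 23 similar processed pseudogenes, counted as pseudogene transcripts at 95% identity or more over at least 50% of the transcript. Rpl24 shares 71.5% of its transcript with exons of another gene on the same strand. Such overlap did not always go with a low level, as Rpl13a (59.3%) was at 114 CPM per kb and Rps10 (53.6%) at 40.8. The 15 genes with 10 or more such pseudogenes had a median of 26.3 CPM per kb, the 43 genes with 1 to 9 had 68.8 and the 19 genes with none had 52.0. Rps15a and Rps20 have no similar pseudogene, but their principal transcripts are annotated at 5130 and 3706 bases, unusually long for an RP mRNA and hard to cover to 50% by a processed copy. With the length of all annotated exons instead, Rpl4 (185 CPM per kb), Rplp1 (149) and Rplp0 (139) were highest and Rpl24 (0.582) and Rpl21 (2.19) lowest. The part of multi-mapping reads in these levels was not tested.

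**Figure D5:**
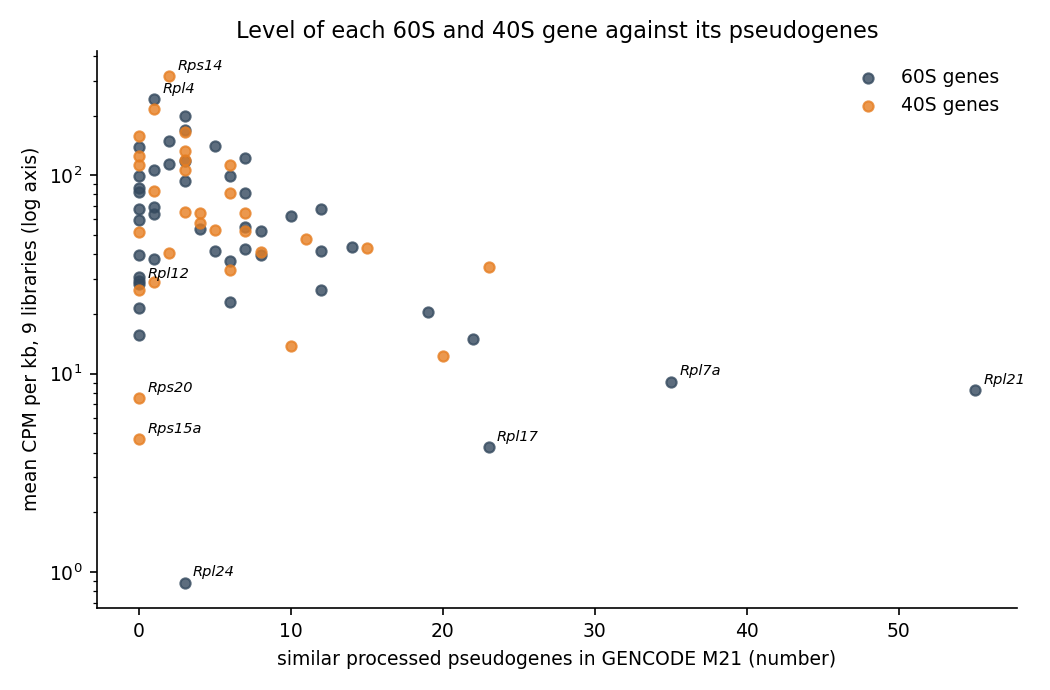
Mean CPM per kb of the principal transcript over 9 libraries (log axis) against the number of similar processed pseudogenes, with 1 point for each of the 46 60S genes and 31 40S genes. Genes with over 20 such pseudogenes lie below the median of 54.9 CPM per kb, and genes with few cover the whole range.

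Counts on the pseudogenes themselves were few and did not separate the fractions. The 363 similar pseudogenes found in the table held 2.97 to 3.09 counts per 100 member counts in Sca-1+ and 2.85 to 3.18 in Sca-1- libraries. Rows with names ending in -ps took at most 0.0132% of the counts of a library. The log2 fold change had a Spearman correlation of -0.0596 with the number of pseudogenes over the 77 genes, of -0.212 with transcript length and of 0.0535 with GC content.

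Genes that build the ribosome and control its output were read beside its own proteins. Of 65 ribosome biogenesis genes tested, 3 were higher and 16 lower in Sca-1+ cells, with a median of -0.53, beside 23.3% higher and 21.4% lower over all genes. Rrp12 (log2 -2.34 ± 0.64 SE, adjusted p = 0.0135), for export of both subunits, and Polr1b (-2.01 ± 0.50, adjusted p = 0.00778), the second largest subunit of RNA polymerase I, fell most. Imp3 (1.37 ± 0.37, adjusted p = 0.0129), of the U3 snoRNP, and Sbds (1.06 ± 0.18, adjusted p = 0.00104), which frees the 60S subunit of eIF6, were higher, though lower under endothelial scaling (-2.50 and -2.99).

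Of 22 genes of mTORC1 and TOP mRNA control, 5 were higher and 6 lower, together near the 44.8% of all genes that differed. Deptor, which binds and inhibits mTOR (3.03 ± 0.30, adjusted p = 5.27e-05), and Ddit4, a stress-induced inhibitor of mTORC1 (1.60 ± 0.41, adjusted p = 0.00925), were higher. Under endothelial scaling they were at -0.93 (adjusted p = 0.0544) and -2.57 (adjusted p = 0.00224). Max, the partner of Myc (-4.60 ± 0.67, adjusted p = 0.0004), and Eif4ebp1, the translation repressor that mTORC1 phosphorylates (-1.86 ± 0.31, adjusted p = 0.000835), were lower. Of 26 other TOP mRNAs 3 were higher and 4 lower, beside 23.3% and 21.4% of all genes, with Snhg8 (1.85, adjusted p = 0.00335) and Tpt1 (0.78, adjusted p = 0.00531) at the upper end, at -2.02 and -3.24 under endothelial scaling, and Eif3h (-1.86, adjusted p = 0.000447) and Nap1l1 (-1.24, adjusted p = 0.000686) at the lower.

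Of 25 translation initiation factors, beside the same shares of all genes, 2 were higher, Eif4e3 (2.07, adjusted p = 0.000411) and Eif5 (0.96, adjusted p = 0.00461), both lower under endothelial scaling (-1.81 and -3.13), and 4 were lower, with Eif5a (-0.93, adjusted p = 0.0226) and Eif2s1 (-0.85, adjusted p = 0.0335) lowest. Both were lost when any single Sca-1+ library was left out (adjusted p of 0.0512 to 0.0825), as was Eif2s1 without Sca-1- library 16 or 22 (0.0627 and 0.0642). Mitochondrial ribosomal protein genes had a median of -0.20 over the 76 tested, of which 5 were higher and 8 lower, beside 23.3% and 21.4% of all genes. Mrps6 (1.22, adjusted p = 0.00205) and Mrpl4 (0.99, adjusted p = 0.020) were highest, at -2.70 and -2.86 under endothelial scaling, and Mrps36 (-1.19, adjusted p = 0.0122) and Mrps23 (-1.01, adjusted p = 0.00154) lowest, with Mrpl4 lost without Sca-1+ library 13 (adjusted p = 0.0522). Of the RP genes outside the naming rule, Fau, which encodes an RP fused to a ubiquitin-like protein and was named after its values were seen, did not pass (-0.25, adjusted p = 0.374), and Rpl36al, a retrogene of Rpl36a, was lower (-0.88 ± 0.28, adjusted p = 0.029), a call lost without Sca-1+ library 7, 13 or 19 or Sca-1- library 16 or 22 (adjusted p of 0.0515 to 0.0746).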

How the data were processed

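RNA of sorted BM ECs from wild-type mice was made into libraries with a low-input poly(A) kit that does not mark strand, 4 from Sca-1+ and 5 from Sca-1- cells, and groups were taken from the labels. What the authors deposited is a single matrix of raw read counts by gene, without normalization. The submitters' processing notes name STAR, featureCounts and mm10, and versions, annotation, strand and the treatment of multi-mapping reads are not given in the sources used here. All 9 columns were used, and 45143 of 46078 genes were found in GENCODE M21, which gave lengths and pseudogenes (blastn 2.17.0).

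Tests used edgeR 4.0.16 under R 4.3.3 (filterByExpr with a minimum count of 10, TMM, quasi-likelihood F-test, two-sided, Benjamini-Hochberg adjustment over all genes tested, threshold 0.05). The second fit replaced TMM by the summed counts of 60S and 40S genes. Log2 fold changes are Sca-1+ over Sca-1-, and standard errors come from the F statistic. CPM use TMM-scaled library sizes. The common dispersion was 0.301. DESeq2 1.42.0 and voom of limma 3.58.1 were alternatives, with other scalings, no filter on low counts, a robust fit, left-out libraries and replicate blocks. Counts hold no molecular identifiers, and the standard errors rest on the spread between libraries. At these depths 3 counts, a floor for counting error only, equal 0.0996 to 0.209 CPM.

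The members and lists were chosen with earlier results of these data known. Genes were named by rule: all paralogs; the 6 largest and 6 smallest log2 fold changes among 60S and 40S genes with an average log2 CPM of at least 4; the 4 and 4 relative to the RP total; the 4 highest and 4 lowest levels per kb; 11 genes of known roles; and 2 and 2 called genes of each other pathway list. Others are marked, and a few genes are not reported here. Whether the libraries of a fraction came from separate mice is not given in the sources used here, apart from a number that the titles of Sca-1+ 15 and Sca-1- 16 share, so p-values measure the spread between these libraries.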

Additional observations from a re-analysis of the deposited data

Results flagged for a closer look

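Of 124 groups of 4 or 5 libraries looked at (each named gene, paralog ratio and summed measure, by fraction), 6 had 1 library far from the others by Dixon's criterion, and chance alone sets about 1 in 20 groups apart. In Sca-1+ cells Rpl7l1 was highest in library 13, at a log2 CPM of 7.11 against 6.75 to 6.80. Rps20 was highest in Sca-1+ library 15, at 5.25 against 4.79 to 4.84, and Mrps23 likewise, at 5.10 against 4.67 to 4.70. Sca-1+ library 19 held the other 3. It had the lowest Mrps36, at a log2 CPM of 1.40 against 1.91 to 1.97, and 106 counts of Rpl22l1 per 100 counts of Rpl22 where the other Sca-1+ libraries had 68.4 to 71.6. It also had 64.9 counts of 40S genes per 100 counts of 60S genes against 69.9 to 70.9. The same library had the lowest RP share of the 4, at 0.404%. Its share of B and plasma cell genes (0.258%) and of neutrophil genes (0.0888%) was the highest of the 4. The 6 groups do not include these lists. No cause was tested. Sca-1- libraries 8 and 10, low together in their RP share, were not set apart by this criterion, which looks at 1 library at a time.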

How the results depend on the processing

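The 9 members that differed after TMM scaling became 14 with DESeq2 size factors (3 higher, 11 lower), 4 with library size only (4 higher, 0 lower), 82 scaled to general endothelial genes (0 higher, 82 lower), 5 with no filter on low counts (3 higher, 2 lower), 18 with DESeq2 (3 higher, 15 lower), 2 in the 6 libraries of consecutive label numbers with the number as a replicate block, 3 in the same 6 without the block, and 44 without both Sca-1- 8 and Sca-1- 10, a fit added after seeing the data. Leaving out 1 library gave 3 to 25. The shares of all genes called in these other settings are not given here, so these counts describe the members alone. The median log2 fold change moved to -4.16 under endothelial scaling, where that of all genes was -3.89. Elsewhere it stayed within the spread of libraries, which includes the low libraries Sca-1- 8 and Sca-1- 10. Relative to the median of all genes it was between -0.68 and -0.23 in every setting. Relative to the RP total, the 9 members became 5 with no filter, 29 with DESeq2 (13 higher, 16 lower), 1 with the replicate block and 3 in the same 6 libraries without it, and 5 to 9 with 1 library left out. The causes were not tested.

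Deviations from the fraction means correlated at 0.147, 0.148 and 0.042 in the 3 pairs of consecutive numbers. In all other pairs across the fractions they correlated at -0.191 to 0.065, so the pairs 7 with 8 and 13 with 14 were highest. The labels do not say whether these libraries are pairs, and the main fits were run without pairs. With the 2 libraries that share a number in their titles as a block, 7 members differed in each fit. Endothelial scaling moved the median of all genes to -3.89, and with that shift these named genes changed sign: Rpl7l1 to -3.88, Rpl22l1 -3.85, Rpl39l -3.31, Rps4l -2.25, Rps27 -2.62, Rps28 -2.76, Rpl41 -3.61, Rpl34 -3.59, Rpl27a -3.61, Rps14 -3.69, Rpl24 -3.36, Rps20 -3.61, Rps19 -3.76, Rplp0 -3.84, Rplp1 -3.92, Rps27rt -2.58, Snhg8 -2.02, Tpt1 -3.24, Imp3 -2.50, Sbds -2.99, Deptor -0.93, Ddit4 -2.57, Eif4e3 -1.81, Eif5 -3.13, Mrps6 -2.70 and Mrpl4 -2.86. All of these but Rplp1 stayed above that median. Rps28 missed the threshold with the replicate block (adjusted p = 0.0538). Among all named genes, 90 calls were lost and 34 gained over 22 settings. The RP share difference moved by less than 1 SD (0.213 percentage points) in every alternative. That SD includes the low Sca-1- libraries 8 and 10, without which the difference changed sign, from 0.0299 to -0.166. Without the 20 highest genes in the denominator the means were 0.582% and 0.583%. Depth limits Rpl39l, Rpl3l and the pseudogene copies.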
